A study of Mus musculus with 24 samples.

Results

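The comparison described here set the aorta of ATAD3A knock-in mice (KI) against that of wild-type mice (WT), both on plain drinking water. It covered 11 of the 24 libraries of the series, 5 KI and 6 WT, chosen by the genotype and treatment labels and not by any measured value. ATAD3A-KI and WT are given with no strain name, and the labels used here say nothing of the construct, its promoter or its insertion site. All mice were male, the tissue ran from the ascending aorta to the abdominal bifurcation, and treatment started at 3 weeks of age and lasted 28 days. The other 13 libraries, 6 KI and 7 WT, came from mice that drank 0.5% β-aminopropionitrile (BAPN), an inhibitor of lysyl oxidase that weakens the cross-links of collagen and elastin and is used to provoke aortic dissection. They entered the same model and are set beside the plain-water values only where stated. The comparison asks what the knock-in changed in an aorta that had not been exposed to the drug.

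ATAD3A is an AAA+ ATPase anchored in the inner mitochondrial membrane that reaches the outer membrane. It is known for its part in cristae structure, in the organisation of mitochondrial DNA nucleoids, and in contacts and cholesterol transfer between mitochondria and the endoplasmic reticulum. The aortic wall is built mainly of contractile smooth muscle cells and elastic lamellae, with an endothelial lining and an outer adventitia that holds fibroblasts, fat and nerve fibres.

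The 11 plain-water libraries held 13127645 to 25725459 counts on genes. In KI the 21 contractile smooth muscle genes summed to 36026 to 78941 CPM (counts per 1e6 counts of the library, scaled by TMM factors). In the WT libraries they summed to 20639 to 79920 CPM. The lowest value, 20639, was that of WT replicate 5, and the other WT libraries held 56263 to 79920 CPM. Acta2, smooth muscle actin, was present in each library. These values fit the aorta label, although in WT replicate 5 airway epithelium markers (22883 CPM) summed to more than the contractile genes. Libraries stood apart in RNA of other tissues. WT replicate 5 was highest in airway epithelium markers (22883 CPM, against at most 251 in the other 10), skeletal muscle, cardiac muscle, T cell, B cell, macrophage and mesothelium markers. KI replicate 2 was highest in sympathetic neuron markers (2914 CPM, next 492 in KI replicate 5, at most 154 in WT). KI replicate 5 was highest in adipocyte markers (15515 CPM, KI median 2348, WT at most 3840). In bulk tissue, fewer cells of a type and less RNA per cell cannot be told apart.

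**Figure D1:**
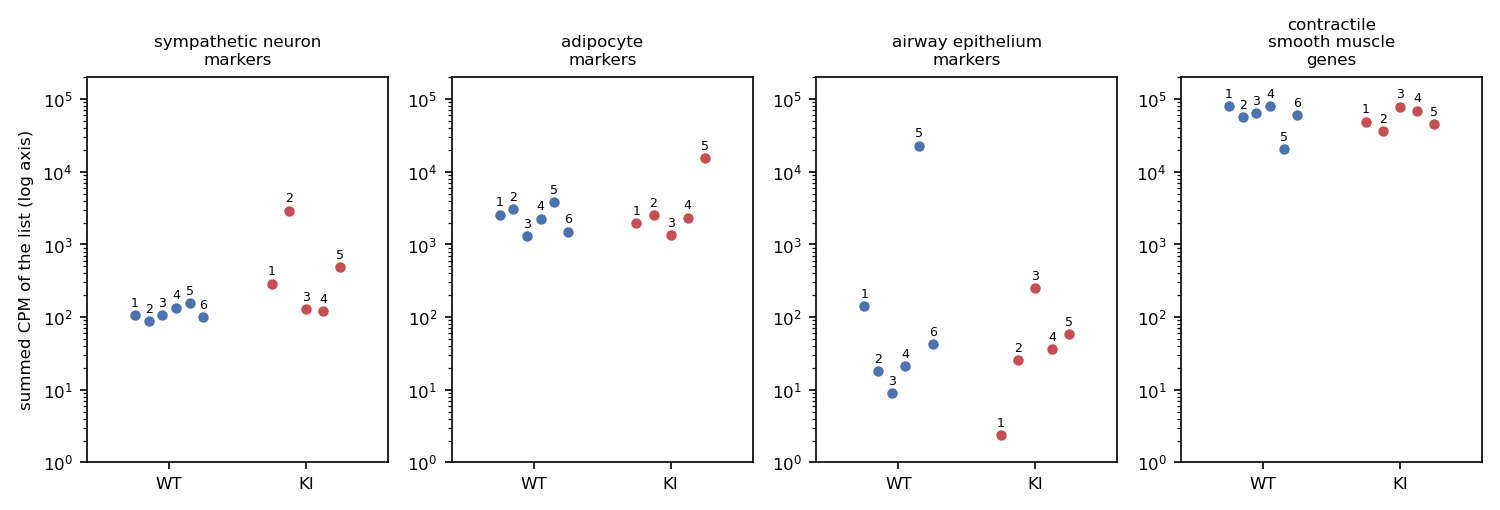
Summed CPM (log axis) of 4 gene lists in each plain-water library, with WT in blue and KI in red; the small digits are replicate numbers. KI replicate 2 stands at 2914 CPM for sympathetic neuron markers, KI replicate 5 at 15515 for adipocyte markers and WT replicate 5 at 22883 for airway epithelium markers.

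Atad3a (ENSMUSG00000029036, chr4:155825098-155845550 in the deposited table) was the targeted gene and had the smallest adjusted p. Its level was 802, 617, 1009.9, 1338 and 1629 CPM in KI replicates 1 to 5. In WT replicates 1 to 6 it was 41.0, 30.5, 38.6, 61.4, 39.5 and 30.2 CPM. Every KI library was above every WT library, and the lowest KI value was far above the highest WT value. The means were 1079 ± 407 CPM in KI (SD, n = 5) and 40.2 ± 11.4 in WT (SD, n = 6), a ratio of 26.8. The difference was 4.75 ± 0.33 on the log2 scale (± SE; edgeR quasi-likelihood test, Benjamini-Hochberg adjusted p = 7.33e-09), and the exact 2-sided permutation p over the 462 arrangements of the libraries was 0.00216, the smallest they can give. The counts do not separate transcripts of the knock-in allele from those of the endogenous gene. Of the 56 genes within 1 Mb of Atad3a, 47 were tested and 0 were called (edgeR, smallest adjusted p = 0.142, median log2 difference -0.06).

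Beyond Atad3a, the knock-in aorta differed from wild type in few genes at the threshold and with the test used. A gene was called when its edgeR adjusted p was under 0.05. Of 14216 genes tested, 27 were called (0.190%), 14 higher and 13 lower in KI, while 2407 had an unadjusted p under 0.05. In 22 of the 27, every KI library lay above or every KI library lay below every WT library, a pattern written here as ranges apart. Over all tested genes 158 were apart and higher in KI (1.11%) and 181 apart and lower (1.27%). Setting libraries aside moved the count of calls widely: leaving out WT replicate 1, 2, 3, 4 or 6 left 2, 3, 2, 2 and 6, leaving out KI replicate 1, 2 or 5 left 5, 1 and 6, and leaving out WT-BAPN replicate 1 or 4, which add only to the estimate of spread, left 6 each. Without WT replicate 5 the count was 293, 202 higher and 91 lower, including all 27, and without KI replicate 4 it was 63. The test mattered as well: with all libraries and the same threshold DESeq2 called 480, limma voom 270 and the newer quasi-likelihood method 212. The balance of directions moved too: 1 higher and 7 lower with only the plain-water libraries in the fit, and 8 higher and 21 lower with the replicate number as a block. Atad3a was the single gene called in all 11 fits that left out a plain-water library, and Ablim1 was called in 10 of them, its adjusted p being 0.0633 without KI replicate 2.

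**Figure D2:**
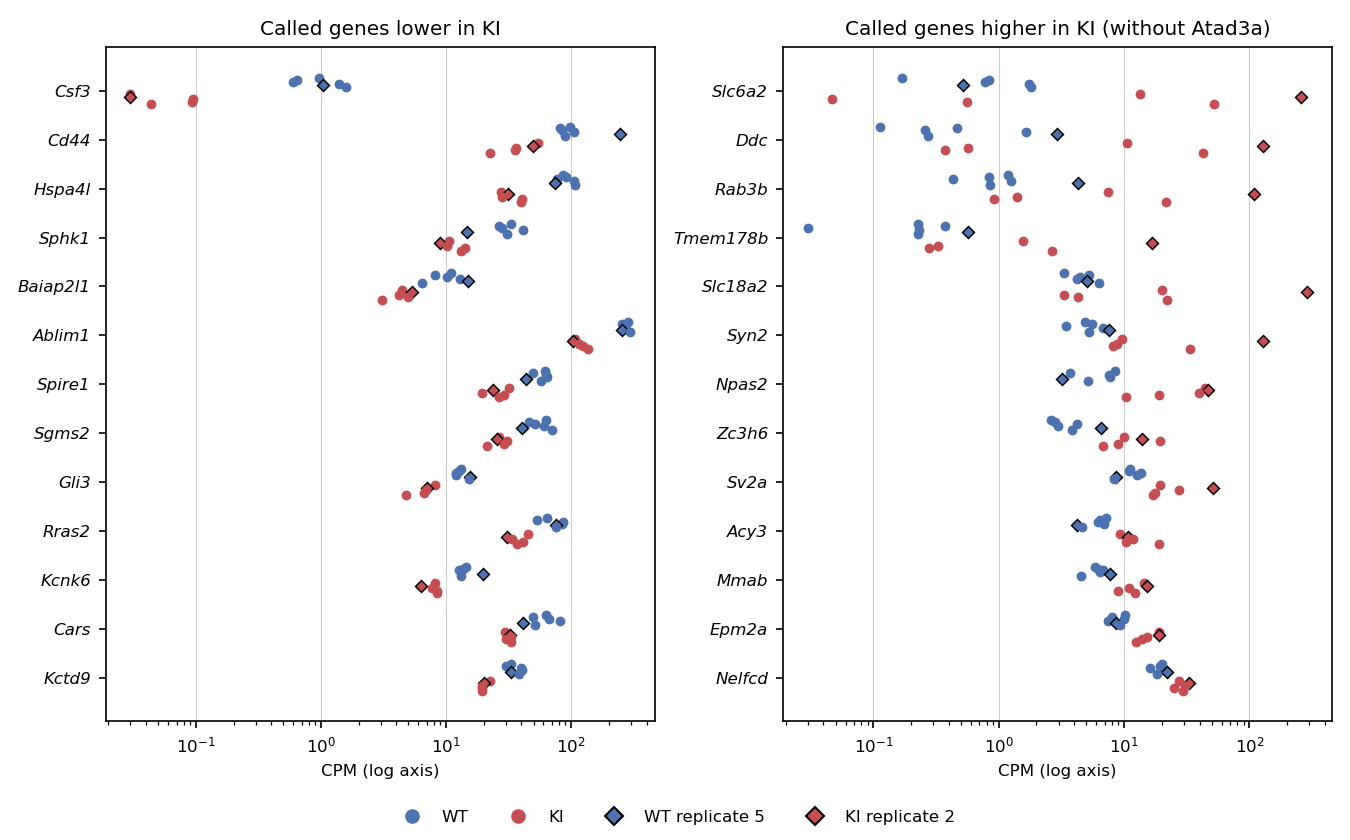
CPM (log axis) of the 26 called genes other than Atad3a in each plain-water library, WT in blue and KI in red, with WT replicate 5 and KI replicate 2 as diamonds; values under 0.03 CPM are drawn at 0.03. The 13 lower genes keep the colours apart, while the first 5 genes on the right are high in 3 KI libraries and overlap WT in the other 2.

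Among the genes that fell were 3 of the actin cytoskeleton. Ablim1 (ENSMUSG00000025085, chr19:57021165-57303351 in the deposited table) encodes actin-binding LIM protein 1, which ties actin filaments to LIM-domain partners. It measured 108, 104, 116, 125 and 136 CPM in KI replicates 1 to 5. The WT libraries held 284, 255, 267, 268, 253 and 294 CPM, so the groups were far apart and tight. The log2 difference was -1.20 ± 0.18 (edgeR adjusted p = 0.00884). Spire1, an actin nucleator, measured 31.8, 23.6, 19.4, 28.8 and 26.5 CPM in KI and 43.9 to 64.4 in WT, a log2 difference of -1.12 ± 0.23 (edgeR adjusted p = 0.0383). Baiap2l1, an I-BAR protein that bends the plasma membrane over actin bundles, measured 3.05 to 5.35 CPM in KI and 6.47 to 14.9 in WT (log2 difference -1.26 ± 0.25, edgeR adjusted p = 0.0383). Of the 29 actin and focal adhesion regulators tested, these 3 fell and 0 rose, beside 0.190% called over all genes. This list was chosen with earlier results of these data known and holds these called genes, so the count is no separate support. The median log2 difference of the list was -0.15 against -0.01 over all genes. Enah, another actin regulator, had -1.08 ± 0.42 with overlapping ranges (edgeR adjusted p = 0.191).

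Both called sphingolipid enzymes were lower in KI. Sphk1, the sphingosine kinase that makes the signalling lipid sphingosine 1-phosphate, held 10.5, 8.91, 10.3, 14.1 and 13.2 CPM in KI and 32.9, 26.5, 28.2, 40.9, 14.8 and 30.5 in WT. The lowest WT value was that of replicate 5 and lay just above the highest KI value. The log2 difference was -1.35 ± 0.27 (edgeR adjusted p = 0.0383). Sgms2, a sphingomyelin synthase, held 21.2 to 30.5 CPM in KI and 40.1 to 70.5 in WT (-1.06 ± 0.21, edgeR adjusted p = 0.0383). S1pr2, a receptor for the product of Sphk1, ranged from 5.55 to 13.8 CPM in KI and from 15.3 to 17.9 in WT, ranges apart, with -0.95 ± 0.32 (edgeR adjusted p = 0.142). Of 23 sphingolipid enzymes and receptors tested, 2 fell and 0 rose, 3 were apart and lower, and 1 was apart and higher (Asah2, a ceramidase, 0.25 ± 0.13, edgeR adjusted p = 0.344). Over all genes tested 0.190% were called, 1.27% were apart and lower and 1.11% apart and higher. The sphingolipid list was chosen with earlier results of these data known and holds the called genes, so its counts are no separate support. Of the list 7 lay above 0, and its median was -0.16.

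The other genes that fell belong to several roles. Cd44, the hyaluronan receptor, measured 53.8, 49.7, 36.3, 35.5 and 22.3 CPM in KI. In WT it measured 97.4, 81.1, 84.8, 106, 247 and 89.5 CPM, the 247 being WT replicate 5, the library highest in leukocyte markers; Cd44 is also a leukocyte antigen. The log2 difference was -1.57 ± 0.33, and it was -1.31 when WT replicate 5 and KI replicate 2 were both set aside (edgeR adjusted p = 0.0425 and 0.0861). Gli3, a transcription factor of the hedgehog pathway, ranged from 4.80 to 8.10 CPM in KI and from 12.0 to 15.4 in WT (-0.995 ± 0.18, edgeR adjusted p = 0.0311). It was the 1 called gene of 15 hedgehog pathway genes, a list chosen with earlier results known, beside 0.190% of all genes. The median of that list was 0.03. Kctd9, of the potassium channel tetramerisation domain family, held 19.2 to 22.3 CPM in KI and 29.998 to 40.6 in WT (-0.84 ± 0.14, edgeR adjusted p = 0.0309) and was called in 6 of the 11 leave-one-out fits. Kcnk6, a 2-pore potassium channel, measured 6.25 to 8.46 CPM in KI and 12.8 to 19.6 in WT (-0.89 ± 0.16, edgeR adjusted p = 0.0311). Rras2, a Ras-family GTPase, held 30.8 to 44.9 CPM in KI and 52.9 to 86.8 in WT. Cars, the cysteinyl-tRNA synthetase of the cytosol, held 29.8 to 33.3 CPM in KI and 41.4 to 81.0 in WT. Csf3, the granulocyte colony-stimulating factor, passed the test from few reads: it stood at 0 in KI replicates 1 and 2 and at most 0.0941 CPM in the others, against 0.599 to 1.58 CPM in WT. It is outside the rule for large changes because of its low level and is named here after its values were seen.

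Protein-folding genes had values mostly below 0 in both the cytosol and the endoplasmic reticulum, and 1 of them, Hspa4l, was called. The cytosolic heat shock list holds chaperones that fold and refold proteins outside the organelles, many of them driven by the factor HSF1. Hspa4l, a nucleotide exchange factor of the HSP70 machine, measured 27.5, 31.0, 28.1, 40.6 and 40.0 CPM in KI and 86.3, 90.3, 76.6, 106, 74.6 and 108 in WT. Its ranges were far apart, with a log2 difference of -1.43 ± 0.29 (edgeR adjusted p = 0.0383). Of 24 heat shock genes tested, 1 fell and 0 rose, 21 had a value below 0, and 4 were apart and lower (Hsp90aa1, Hspa4l, Fkbp4 and Cryab) against 1.27% of all genes. The list's median was -0.77, and it lay between -0.89 and -0.65 when each plain-water library was left out in turn. Hsp90aa1, the inducible cytosolic HSP90, measured 407 to 698 CPM in KI and 784 to 1968 in WT, with -1.48 ± 0.36 (edgeR adjusted p = 0.0799). Hspb1, a small heat shock protein of muscle, measured 159 to 862 CPM in KI and 624 to 3420 in WT, with -2.05 ± 0.54 (edgeR adjusted p = 0.0951) and overlapping ranges. Immediate early genes, which respond within minutes to stimulation and handling, moved beside them: 24 of 25 tested had a value below 0, with a median of -0.54 and 0 called; their part in the heat shock values was not tested.

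The endoplasmic reticulum list holds chaperones of the secretory pathway and factors of the unfolded protein response, the programme that raises folding capacity when unfolded protein builds up there. None of its 18 tested members was called, yet each had a value below 0, and 11 of the 18 were apart and lower in KI, beside 1.27% of all genes. The 11 were Dnajb11, Canx, Xbp1, Pdia6, Sdf2l1, Creld2, Pdia4, Hspa5, Herpud1, Hyou1 and Manf. The list's median was -0.55, between -0.59 and -0.52 when each plain-water library was left out and -0.52 without WT replicate 5 and KI replicate 2. Markers of adventitial fibroblasts, cells that secrete matrix, moved beside this list: 11 of 14 tested had a value below 0 with a median of -0.74, or -0.76 without WT replicate 5 and KI replicate 2, and 0 were called. Their summed level was 1458 to 5701 CPM in KI and 2111 to 7367 in WT, no marker was at 0 in all plain-water libraries, and their part in the endoplasmic reticulum and heat shock values was not tested. Members of a list were read in the same libraries and are not independent of each other, and the lists were chosen with earlier results of these data known.

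Manf, a secreted factor released under endoplasmic reticulum stress, held 73.4, 60.1, 58.7, 68.7 and 53.1 CPM in KI and 125, 155, 114, 145, 129 and 165 in WT. No KI library came near the lowest WT library, and the log2 difference was -1.15 ± 0.29 (edgeR adjusted p = 0.0825). Xbp1, the transcription factor of the IRE1 branch, held 135, 106, 158, 166 and 186 CPM in KI and 259, 255, 275, 338, 199 and 253 in WT (-0.81 ± 0.21, edgeR adjusted p = 0.0930). Herpud1, a factor of endoplasmic reticulum associated degradation, ranged from 71.8 to 129 CPM in KI and from 146 to 196 in WT (-0.67 ± 0.18, edgeR adjusted p = 0.0985). Hspa5, the HSP70 of the endoplasmic reticulum also known as BiP, measured 506, 365, 456, 508 and 406 CPM in KI. In WT it measured 755, 927, 639, 881, 650 and 1001 CPM, and the log2 difference was -0.85 ± 0.30 (edgeR adjusted p = 0.155). The PERK branch and the wider integrated stress response were less uniform: of 19 genes tested, 0 were called, 11 had a value below 0, and the median was -0.20. Ddit3, the pro-apoptotic factor CHOP, had -0.84 ± 0.21 (edgeR adjusted p = 0.0825).

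**Figure D3:**
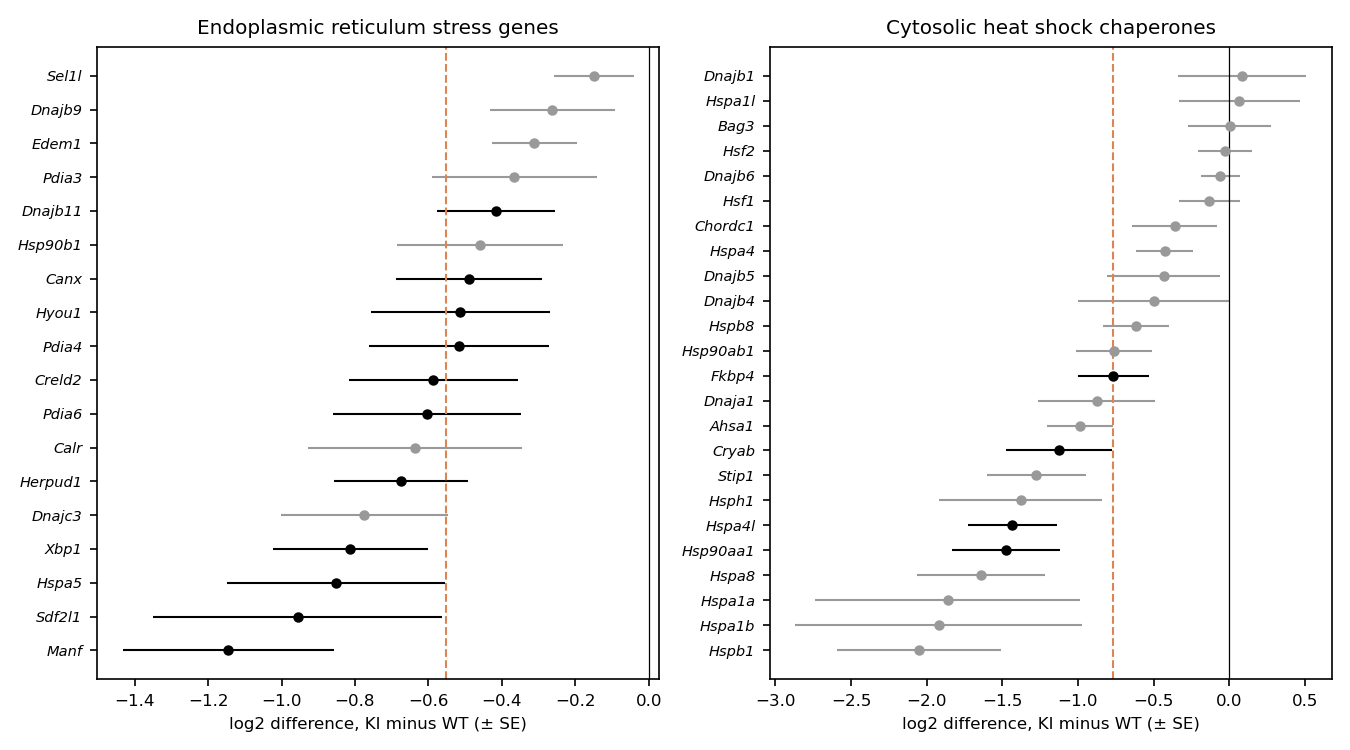
Log2 difference, KI minus WT on plain water (± SE), of the 18 endoplasmic reticulum stress genes and the 24 cytosolic heat shock chaperones tested. Black points have ranges apart and grey ones do not; the dashed line is the median of the list, -0.55 and -0.77. All 18 points on the left and 21 of 24 on the right lie below 0.

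Some promoters of the endoplasmic reticulum genes hold a known control sequence, the ER stress element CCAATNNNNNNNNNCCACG, bound by NF-Y together with ATF6 or XBP1. It was searched on both strands in RefSeq promoter windows of GRCm38.p6, running from 250 bases before to 50 bases after each annotated start. The element lay in 7 of the 16 windows of the list (43.8%) and in 39 of all 32851 windows (0.119%). The 250 bases before the start of Hspa5 are shown because this gene is the standard reporter of the response; the capitals mark the element.
Hspa5: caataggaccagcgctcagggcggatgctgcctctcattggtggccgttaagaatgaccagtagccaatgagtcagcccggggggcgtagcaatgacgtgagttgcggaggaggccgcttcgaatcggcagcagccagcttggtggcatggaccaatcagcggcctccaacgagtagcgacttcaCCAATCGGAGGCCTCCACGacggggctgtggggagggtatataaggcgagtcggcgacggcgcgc
This window is chr2:34771840-34772089 on the plus strand. The element in the other 6 genes is shown with 15 bases on each side, on the strand of the gene, so that the fixed ends and the variable middle can be compared. In Calr and Creld2 it reads on the opposite strand.
Canx: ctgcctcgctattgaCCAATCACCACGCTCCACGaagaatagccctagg
Pdia6: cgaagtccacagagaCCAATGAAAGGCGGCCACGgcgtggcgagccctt
Dnajc3: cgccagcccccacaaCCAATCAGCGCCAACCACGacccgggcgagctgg
Hsp90b1: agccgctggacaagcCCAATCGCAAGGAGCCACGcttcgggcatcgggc
Creld2: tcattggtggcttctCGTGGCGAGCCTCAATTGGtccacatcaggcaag
Calr: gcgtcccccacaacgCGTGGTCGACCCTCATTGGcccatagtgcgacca
The sites are chr11:50325800-50325818 for Canx (minus strand), chr12:17266491-17266509 for Pdia6 (plus), chr14:118937827-118937845 for Dnajc3 (plus), chr10:86705638-86705656 for Hsp90b1 (minus), chr15:88819520-88819538 for Creld2 (plus) and chr8:84847075-84847093 for Calr (minus). Of the 7 genes with the element, 4 (Hspa5, Canx, Pdia6 and Creld2) were among the 11 with ranges apart. The whole list had a similar share, 11 of 18, and a relation of the element to the differences was not tested. The log2 differences were -0.49 ± 0.20 for Canx, -0.60 ± 0.26 for Pdia6, -0.77 ± 0.23 for Dnajc3, -0.46 ± 0.23 for Hsp90b1, -0.59 ± 0.23 for Creld2 and -0.64 ± 0.29 for Calr. A match describes the letters of the window and shows no binding in these samples.

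The heat shock element was searched as 2 facing units, GAANNTTC. It lay in 12 of 27 windows of the heat shock list (44.4%) and in 7.86% of all windows. The sites of Fkbp4, an HSP90 co-chaperone with ranges apart, and of Hspb1 and Dnaja1 are shown, with the 2 units and their spacer in capitals.
Fkbp4: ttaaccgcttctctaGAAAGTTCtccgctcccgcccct
Hspb1: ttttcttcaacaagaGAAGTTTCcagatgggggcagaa
Dnaja1: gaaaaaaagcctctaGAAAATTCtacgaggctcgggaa
They lie at chr6:128438800-128438807 (minus strand), chr5:135887802-135887809 (plus) and chr4:40722344-40722351 (plus). Fkbp4 measured 134 to 206 CPM in KI and 222 to 349 in WT (-0.77 ± 0.23, edgeR adjusted p = 0.121), and Dnaja1 had -0.88 ± 0.39 (edgeR adjusted p = 0.249). Of the 10 genes with the element, Fkbp4 was the 1 with ranges apart, and Bag3, Dnajb6 and Chordc1, which hold it too, had 0.002 ± 0.28, -0.06 ± 0.13 and -0.36 ± 0.28.

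Genes of mitochondrial amino acid breakdown had values mostly above 0, and 1 of them, Mmab, was called. This pathway degrades leucine, isoleucine and valine in mitochondria and sends the propionate units through methylmalonyl-CoA and a cobalamin-dependent mutase into the tricarboxylic acid cycle. Mmab, which makes the adenosylcobalamin cofactor of that mutase, held 14.3, 15.2, 11.01, 8.93 and 12.3 CPM in KI and 5.86, 6.15, 6.85, 6.40, 7.72 and 4.52 in WT. The groups did not overlap, and Mmab rose by 0.98 ± 0.20 on the log2 scale (edgeR adjusted p = 0.0383). Of 25 genes of the list tested, 1 rose and 0 fell, 23 had a value above 0, and 8 were apart and higher (Dbt, Auh, Mccc2, Mmut, Ivd, Mmab, Acad8 and Bckdhb), beside 1.11% of all genes. The list's median was 0.47. It too was chosen with earlier results of these data known, so its counts are no separate support.

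Mmut, the mutase itself, measured 43.5, 44.2, 44.9, 46.3 and 57.9 CPM in KI and 26.3, 35.7, 29.0, 25.6, 32.2 and 36.0 in WT (0.62 ± 0.15, edgeR adjusted p = 0.0801). Dbt, the lipoylated core subunit of the branched-chain keto acid dehydrogenase, measured 38.2, 35.6, 33.5, 29.2 and 43.8 CPM in KI and 18.5 to 27.3 in WT (0.61 ± 0.15, edgeR adjusted p = 0.0799). Mccc2, a subunit of the leucine-pathway carboxylase, measured 18.6, 24.8, 18.3, 18.3 and 38.7 CPM in KI and 9.63 to 16.4 in WT (1.02 ± 0.24, edgeR adjusted p = 0.0799). For these 3 genes the ranges were apart, and KI replicate 5 was the highest library in each. That library was also highest in adipocyte markers, whose part in these values was not tested. Without KI replicate 5 the list's median was 0.27 and 21 of the 25 stayed above 0, while the median of the adipocyte markers went from 1.43 to -0.27. Without WT replicate 5 and KI replicate 2 the list's median was 0.60.

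Other mitochondrial groups showed no such separation. Of all genes tested, 0.190% were called, 1.11% were apart and higher in KI and 1.27% apart and lower. At those shares lists this short would mostly hold no called gene, so the absence of calls is no result about a list. Fatty acid oxidation enzymes had a median of 0.39 over 22 tested genes, 0 called and 1 apart and higher, but -0.19 without KI replicate 5. Tricarboxylic acid cycle enzymes had a median of 0.24 over 17 genes, 0 called, and -0.19 without KI replicate 5. Nuclear-encoded subunits of complex I (37 genes, median 0.12) and of complexes III to V (35 genes, median 0.09) had 0 called and 0 with ranges apart, and both medians turned negative without that library, to -0.14 and -0.20. The series title names lipoylation and contacts between mitochondria and lysosomes. Of 23 genes of lipoylation and of lipoylated complexes, 0 were called, 2 were apart and higher (Dbt and Bckdhb, both also in the amino acid list), and the median was 0.18, or 0.01 without KI replicate 5. Of 23 genes of mitochondria-lysosome contact and mitophagy, 0 were called and 0 were apart, with a median of 0.02. Among 24 genes of fusion, fission, cristae and nucleoids, the roles ATAD3A is best known for, 0 were called and 0 were apart, with a median of 0.13. The share of counts on mitochondrially encoded genes was 9.33% ± 3.07 in KI (SD, n = 5) and 10.6% ± 2.78 in WT (SD, n = 6), a difference of -1.29 percentage points that was within the spread (exact 2-sided permutation p = 0.472). The highest KI share, 14.7%, was that of replicate 5, and without it the difference was -2.63 points (exact permutation p = 0.114). All 13 mitochondrially encoded subunits tested had a value below 0, with a median of -0.45, or -0.77 without KI replicate 5, and 0 were called or had ranges apart. Cholesterol synthesis genes had a median of 0.50 over 18 genes, 17 of them above 0, with 0 called and 0 with ranges apart.

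The other called rises belong to other roles. Epm2a, the glycogen phosphatase laforin, measured 19.02, 18.9, 15.2, 13.97 and 12.4 CPM in KI and 7.51 to 10.2 in WT (0.83 ± 0.15, edgeR adjusted p = 0.0311). It was the 1 gene that rose among 20 glycogen genes tested, a list chosen with earlier results known, beside 0.190% called of all genes. Zc3h6, a CCCH zinc-finger protein, measured 10.1, 13.9, 19.2, 8.97 and 6.85 CPM in KI and 2.59 to 6.58 in WT (1.62 ± 0.30, edgeR adjusted p = 0.0383). Nelfcd, a subunit of the negative elongation factor that pauses RNA polymerase II, measured 25.1 to 33.1 CPM in KI and 16.2 to 22.0 in WT (0.59 ± 0.11, edgeR adjusted p = 0.0383). Acy3, an aminoacylase, measured 9.35 to 11.8 CPM in KI replicates 1 to 4, 18.98 in replicate 5 and 4.23 to 7.15 in WT (1.05 ± 0.22, edgeR adjusted p = 0.0425).

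Of the clock genes tested, 1, the activator Npas2, was called, beside 0.190% of all genes. The clock lists were chosen with earlier results of these data known. The circadian clock runs on a loop in which BMAL1 (gene Arntl) pairs with CLOCK or NPAS2 at E-boxes and drives PER, CRY and REV-ERB repressors, which feed back on it. Npas2 measured 43.9, 46.9, 39.7, 19.01 and 10.4 CPM in KI and 8.39, 3.70, 7.53, 7.78, 3.20 and 5.11 in WT. Every KI library was above every WT library, although KI replicate 5 was close to them, and Npas2 rose by 2.43 ± 0.49 on the log2 scale (edgeR adjusted p = 0.0383). Arntl measured 24.1, 23.2, 44.0, 25.8 and 24.3 CPM in KI and 6.98 to 16.7 in WT, ranges apart, with 1.20 ± 0.38 (edgeR adjusted p = 0.125). Clock itself had 0.11 ± 0.14, and Rora, which drives Arntl, had a value below 0, -0.54 ± 0.26 (edgeR adjusted p = 0.281). Of the 5 activators and partners 4 had a value above 0, and their median, 0.63, was 0.15 without KI replicate 5. All 10 repressors tested had a value below 0, with a median of -0.61, 0 called and 0 with ranges apart; the lowest was Ciart, with -1.82 ± 0.68 (edgeR adjusted p = 0.178). Of the output factors, Dbp measured 20.3, 25.1, 28.9, 37.5 and 26.3 CPM in KI and 42.4 to 111 in WT (-1.47 ± 0.46, edgeR adjusted p = 0.125). Hlf and Tef had -1.10 ± 0.43 and -0.61 ± 0.26, and Nfil3, which acts against them, had 0.09 ± 0.51. The hour of tissue collection is not given in the sources used here, so genotype and time of day cannot be told apart for these genes.

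**Figure D4:**
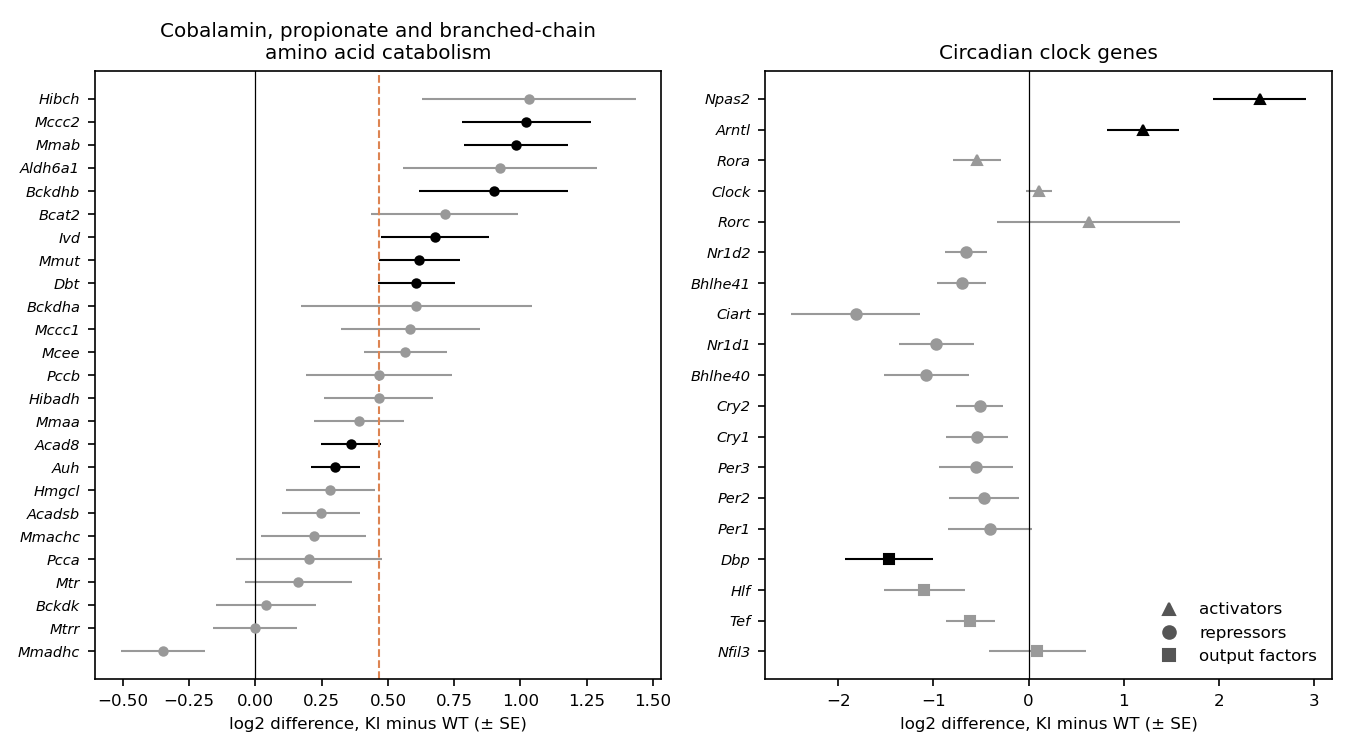
Log2 difference, KI minus WT on plain water (± SE), of the 25 tested genes of cobalamin, propionate and branched-chain amino acid catabolism (dashed line, median 0.47) and of 19 clock genes by role. Black points have ranges apart. Npas2 and Arntl lie to the right of 0 and all 10 repressors to the left.

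The E-box CACGTG lay in 4 of 9 windows of the clock repressors (44.4%) and in 7.15% of all windows. The 4 sites, and that of Tef, are shown with the E-box in capitals because the activators of the loop act at E-boxes. A match shows no binding in these samples, and its relation to the differences was not tested.
Ciart: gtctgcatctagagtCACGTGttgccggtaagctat
Bhlhe41: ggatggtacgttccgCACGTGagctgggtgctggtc
Cry1: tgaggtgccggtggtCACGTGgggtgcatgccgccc
Per1: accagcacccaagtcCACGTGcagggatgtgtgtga
Tef: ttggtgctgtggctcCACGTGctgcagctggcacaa
They lie at chr3:95882339-95882344 (minus strand), chr6:145865568-145865573 (minus), chr10:85185109-85185114 (minus), chr11:69098783-69098788 (plus) and chr15:81802546-81802551 (plus) in GRCm38.p6. The log2 differences of Bhlhe41, Cry1 and Per1 were -0.70 ± 0.26, -0.54 ± 0.32 and -0.41 ± 0.44.

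Genes of sympathetic neurons were also called higher in KI, and several of them were high in 3 of the 5 KI libraries. Slc6a2, the noradrenaline transporter, measured 13.4, 258, 0.0470, 0.555 and 52.4 CPM in KI replicates 1 to 5 and 0.169 to 1.81 in WT. Ddc, the decarboxylase that makes dopamine, measured 10.6, 127, 0.564, 0.370 and 42.6 CPM in KI and 0.113 to 2.92 in WT. Slc18a2, the vesicular monoamine transporter, measured 19.9, 288, 3.29, 4.26 and 21.9 CPM in KI and 3.32 to 6.33 in WT. In all 3 genes KI replicates 1, 2 and 5 were above every WT library and KI replicates 3 and 4 lay within or below the WT range. Rab3b and Tmem178b followed the same order of libraries, with 109 and 16.8 CPM in KI replicate 2. Syn2, a synaptic vesicle phosphoprotein, measured 9.63, 129, 8.80, 8.14 and 33.4 CPM in KI and 3.42 to 7.61 in WT, ranges apart, with 2.76 ± 0.56 (edgeR adjusted p = 0.0383). Sv2a, a synaptic vesicle glycoprotein, measured 19.5, 51.5, 27.6, 17.5 and 17.1 CPM in KI and 8.27 to 13.5 in WT, ranges apart, with 1.29 ± 0.27 (edgeR adjusted p = 0.0425).

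Of the 15 sympathetic neuron markers tested, 5 rose (Slc18a2, Ddc, Slc6a2, Syn2 and Sv2a), 0 fell, and all 15 had a value above 0. Over all genes tested 0.190% were called. The list was chosen with earlier results of these data known and holds these called genes, so the count is no separate support. Unlike in Slc6a2, Ddc and Slc18a2, the lowest KI value of Sv2a was that of replicate 5. Tyrosine hydroxylase, Th, the defining enzyme of these neurons, stood at 17.1, 238, 0, 0.0925 and 48.8 CPM in KI and at most 2.76 in WT. The markers' summed level was 121 to 2914 CPM in KI and 88.2 to 154 in WT. Without KI replicate 2 none of these genes was called, but nor was any other gene except Atad3a. Without WT replicate 5 and KI replicates 1, 2 and 5 the log2 difference of Slc6a2 was -1.81 and that of Ddc -0.27. Slc6a2, Ddc, Rab3b and Tmem178b are outside the rule for large changes, since their ranges overlapped, and are named here after their values were seen.

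Genes of the contractile apparatus and the matrix, the tissue at stake in dissection, showed no call. Over all genes tested 0.190% were called, 1.11% were apart and higher in KI and 1.27% apart and lower. At those shares lists this short would mostly hold no called gene, so the absence of calls is no result about this tissue. Of 21 contractile smooth muscle genes tested, 0 were called and 0 had ranges apart, with a median of -0.04. Of 21 elastic fibre and cross-linking genes and 17 collagen chain genes, 0 were called and 0 had ranges apart, with medians of -0.10 and -0.02. The 16 macrophage markers tested all had a value below 0, with a median of -1.29, which was -0.53 without WT replicate 5 and KI replicate 2, and 0 were called.

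The KI and WT mice on BAPN share no library with the plain-water pair and give the same genotype contrast a second time, under the drug. On BAPN 1 gene was called (0.00703%), Atad3a, with a log2 difference of 4.14 ± 0.30 (edgeR adjusted p = 1.37e-08), while 1983 genes had an unadjusted p under 0.05. The test of whether the genotype difference changed with BAPN called 0 genes (0%), with 2111 at an unadjusted p under 0.05; DESeq2 called 14 and limma voom 4. Of the 26 called genes other than Atad3a, 19 had the same sign on BAPN, 12 of the 13 lower genes and 7 of the 13 higher ones, beside 49.7% of all tested genes. None of the 26 had ranges apart on BAPN, and their smallest adjusted p there was 0.243. Of the 339 genes with ranges apart on plain water, 200 (59.0%) had the same sign on BAPN.

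For the genes given here the differences on BAPN were smaller. Ablim1 ranged from 115 to 175 CPM in KI on BAPN and from 83.0 to 212 in WT on BAPN, with -0.08 ± 0.17. Zc3h6 had the largest BAPN difference of the 26, with 1.08 ± 0.27 (edgeR adjusted p = 0.243) and medians of 13.4 CPM in KI and 6.22 in WT. Kctd9 had -0.44 ± 0.13 (edgeR adjusted p = 0.243) and Npas2 -0.42 ± 0.44. The 26 genes were called by their plain-water difference. That choice alone favours an extreme plain-water WT mean and smaller differences on BAPN, so the following counts are no separate support. All 13 genes that were lower in KI had their highest mean of the 4 groups in WT on plain water. Of the 13 higher genes other than Atad3a, 7 had their lowest mean of the 4 groups in WT on plain water. Among these, Mmab had a median of 13.01 CPM in WT on BAPN and 12.6 in KI on BAPN. Both medians lay within the range of the plain-water KI libraries.

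The lists' medians on BAPN lay nearer to 0 in some cases and further from it in others, and no list's difference between the pairs was tested. The endoplasmic reticulum list had a median of -0.10 on BAPN, the heat shock list -0.01, the amino acid list 0.18 and the clock repressors 0.13. On BAPN the complex I subunits and those of complexes III to V both had 0.71, the fatty acid oxidation enzymes 0.63 and the tricarboxylic acid cycle enzymes 0.41, and the adipocyte markers had a median of 1.63. Manf had medians of 74.2 CPM in WT and 73.6 in KI on BAPN, Hspa5 494 and 378, and Hspb1 203 and 199. The plain-water WT libraries stood above those medians for all 3 genes. The difference between the pairs was not called for any of the 26 genes (smallest adjusted p of the interaction 0.280, edgeR).

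**Figure D5:**
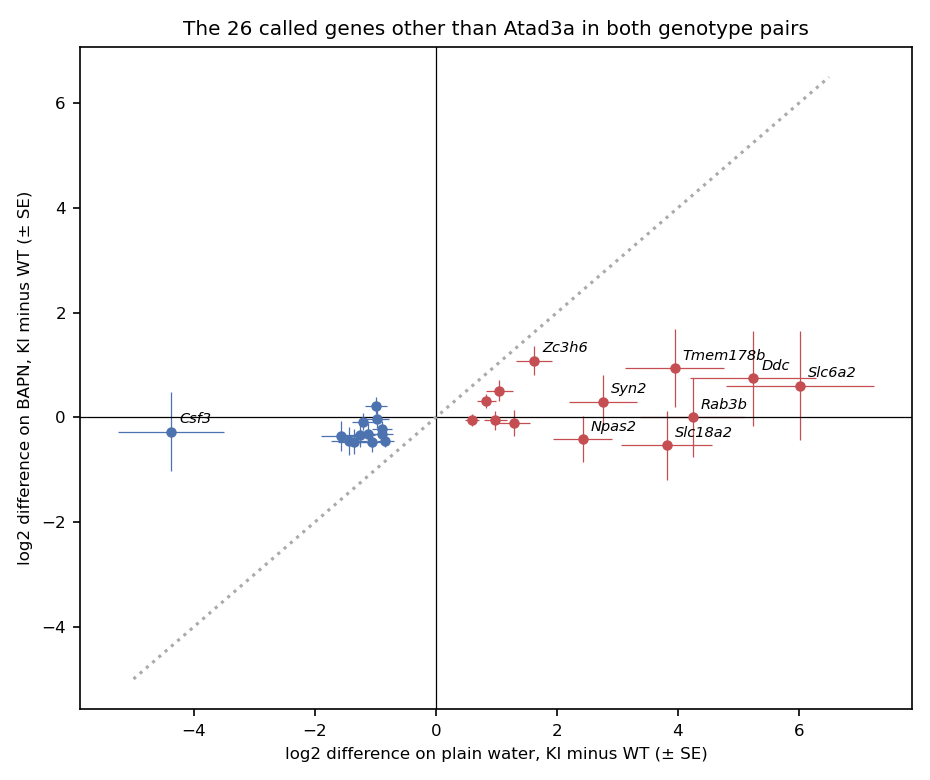
Log2 difference, KI minus WT (± SE), of the 26 called genes other than Atad3a on plain water (horizontal axis) and on BAPN (vertical axis), rises in red and falls in blue; the dotted line marks equal values. The points lie between -0.54 (Slc18a2) and 1.08 (Zc3h6) on the vertical axis, and of the labelled genes Zc3h6 is the nearest to the dotted line.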

How the data were processed

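Aortic mRNA was sequenced from 24 mice (labels: 6 WT, 7 WT-BAPN, 5 KI, 6 KI-BAPN). The authors deposited 1 table of read counts per gene, whole numbers with no normalization; per the submitters' processing notes, Trim Galore, FastQC, HISAT2 and DESeq2 were used and mm10 and GRCm38 are named. The counter, its strand setting and the annotation are not stated in the labels, so reads of overlapping genes and near-identical copies may be split. Of 21959 genes, 514 of 21851 found in GENCODE M21 had the same coordinates, so positions of genes are given as deposited. Here the counts were fitted with edgeR 4.0.16 in R 4.3.3 (TMM, filterByExpr, 1 mean per group over all 24 libraries, robust quasi-likelihood test, Benjamini-Hochberg adjustment over 14216 genes), tested on simulated counts. CPM used TMM factors. A single value was compared with an exact permutation test. Lists' medians are of fitted log2 differences.

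Named were Atad3a; the 12 largest rises and falls among called genes with at least 5 CPM in the higher group and ranges apart; the 10 called genes called in most leave-one-out fits; up to 10 genes called in the same direction on water and BAPN; and called members and up to 4 members of smallest adjusted p of each described list. Other genes named were chosen after their values were seen, as was the choice of promoter sites shown. The comparison and all lists were chosen with earlier results of these data known. Alternatives were other normalizations, filters, tests and thresholds, a replicate block, and libraries left out. Promoter windows are RefSeq's (GRCm38.p6); 19 of the 27 called genes matched. No p-value is given for a list.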

Additional observations from a re-analysis of the deposited data

Results flagged for a closer look

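In 11 of 56 tests of a group's values, 1 library stood further from the rest than Dixon's 95% limit allows. For independent tests chance gives about 5% of such flags. These tests shared libraries and the flagged genes were called genes, so the count cannot be read against that share. In 5 cases the library was KI replicate 2 and the gene a neuronal one. Slc6a2 stood at 257.6 CPM there, against 0.0470 to 52.4 in the other KI libraries. Rab3b stood at 109.0 CPM against 0.925 to 21.7, and Tmem178b at 16.8 against 0.278 to 2.66. Slc18a2 stood at 288.1 CPM against 3.29 to 21.9, and Syn2 at 129.4 against 8.14 to 33.4. The summed sympathetic neuron markers were highest in the same library, and their part in these values was not tested.

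WT replicate 5 stood apart in 3 genes. Cd44 stood at 247.4 CPM against 81.1 to 106 in the other WT libraries, Kcnk6 at 19.56 against 12.8 to 14.5, and Rab3b at 4.29 against 0.428 to 1.24. For Cd44 and Kcnk6, which were lower in KI, this library widened the difference between the means. KI replicate 5 stood apart in Acy3, at 18.98 CPM against 9.35 to 11.8, and in the mitochondrially encoded share of counts, 14.65% against 6.96% to 8.71%. Atad3a in WT replicate 4, at 61.4 CPM against 30.2 to 41.0, remained far below every KI library.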

How the results depend on the processing

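Atad3a and the mitochondrially encoded share kept their direction and side of the threshold under every alternative run. The count of called genes (27) did not: it was 480 with DESeq2, 270 with limma voom, 212 with the newer quasi-likelihood method, 7 with no filter, 8 with only the plain-water libraries, 2 and 196 at adjusted p under 0.01 and 0.1, 11 without WT 5 and KI 2, and 1 without WT 5 and KI 1, 2 and 5; it ran from 1 to 293 when 1 library was left out. DESeq2 and the newer method called all 27 genes and limma voom 21 of them. Genes called on both water and BAPN numbered 1, or 2 with limma voom, and the interaction called 0, or 14 with DESeq2 and 4 with limma voom. Same-numbered WT and KI libraries deviated together with correlations from -0.02 to 0.48, so the numbers were not taken as pairs; with the replicate block 29 genes were called, 15 of the 27 among them.

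Of 595 values of the 26 called genes other than Atad3a, 308 lost the call and 3 changed sign: without WT 5 and KI 1, 2 and 5, Slc6a2 was -1.81, Ddc -0.27 and Slc18a2 -0.32. The uncalled Nfil3 was -0.057 with the replicate block and ran from -0.11 to 0.51 with 1 library left out. Ppara ran from -0.32 to 2.07, Cpt1b from -0.40 to 2.29 and Ppargc1a from -0.21 to 1.54, each lowest without KI 5, and Ppargc1a was -0.070 without WT 5 and KI 1, 2 and 5. The causes of these changes were not tested. In genes of low counts, such as Csf3, depth limits the precision.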
